A study of Mus musculus with 24 samples.

Results

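The HOPS and CORVET tethering genes are the 8 genes Vps8, Vps11, Vps16, Vps18, Vps33a, Vps39, Vps41 and Tgfbrap1. They were taken by name, and not by a rule on measured values, from the 55487 genes of the deposited gene table. The list was chosen with earlier results of these data known. All 8 were found and passed the filter on low counts. Their mRNA was measured in mouse embryonic fibroblasts (MEFs), cultured cells grown from mouse embryos, of 2 genotypes, wild type (WT) and a double knockout of Tfeb and Tfe3 (tfeb tfe3 DKO). The cells of each genotype received the vehicle DMSO, the MTOR inhibitor torin1 or the AMPK activator MK-8722, which gives 6 groups with 4 libraries each. TFEB and TFE3 are transcription factors of lysosomal genes, and the comparisons ask how the tethering genes responded to each drug and how far the response differed without both factors. The libraries of a group came from cells of different passages, 7, 8, 9 and 11 in WT and 8, 9, 10 and 11 in DKO. The WT and DKO cells were obtained from another laboratory and the labels name no separate clone or embryo for the libraries, so the p-values below measure the spread between passages of what may be 1 line per genotype, and a difference between the genotypes cannot be told apart from a difference between the lines.

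Endosomes and lysosomes fuse with their partner membranes only after a tether has brought the membranes together. CORVET does this on early endosomes, where it binds the small GTPase RAB5, and HOPS does it on late endosomes, lysosomes and autophagosomes, where it works with RAB7, RAB2 and ARL8. The complexes share a core of VPS11, VPS16, VPS18 and VPS33A, of which VPS33A is the SM protein that templates SNARE assembly, and each adds its own pair of GTPase-binding subunits. VPS39 and VPS41 belong to HOPS, and VPS8 and TGFBRAP1 (the mammalian relative of yeast Vps3) belong to CORVET.

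The libraries held between 24668921 and 33332562 estimated counts, with a median of 27988364, and every member had at least 500 counts in every library. Tfeb mRNA stood at 22.9 ± 1.74 CPM (counts scaled to a common library size, using the total and the TMM factor of each library) in WT under DMSO and at 2.25 ± 0.289 CPM in DKO under DMSO (SD, n = 4), whereas Tfe3 mRNA stood at 120 ± 1.17 and 124 ± 2.11 CPM. A count over the whole gene includes reads from outside a deleted part, so the Tfe3 level is no check of its knockout. Of 9 fibroblast markers, Vim, Col1a1, Fn1 and S100a4 had medians over all libraries of 3293, 470, 524 and 1464 TPM (Salmon's length-scaled share of transcripts), and Thy1 had a median of 1.52 TPM. Adgre1 and Myod1 had a median of 0 and Ptprc, Pecam1 and Cdh5 reached at most 0.215 TPM, whereas Krt8 reached 11.9 TPM and Cd68, which encodes a lysosomal protein abundant in macrophages, reached 22 TPM. The sums of both lists moved with the groups. The leukocyte and macrophage markers summed to 2.32 to 3.50 TPM in WT under DMSO, 6.43 to 9.96 under torin1 and 15 to 22.1 under MK-8722, and to 5.72 to 9.04, 6.96 to 12.5 and 11.6 to 17.2 TPM in DKO. The epithelial markers summed to 2.07 to 3.89, 4.55 to 6.11 and 2.90 to 4.14 TPM in WT and to 2.34 to 3.92, 8.42 to 12.2 and 4.88 to 9.47 TPM in DKO. The muscle markers summed to 2.29 to 5.86 TPM in the WT libraries and to at most 0.948 TPM in the DKO libraries, and the endothelial markers to at most 0.417 TPM in any library. The part of these markers in the results below was not tested.

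The 8 genes lie on 6 chromosomes. By the GENCODE M21 annotation of GRCm38, Vps16, Vps18 and Vps39 lie on chromosome 2 (chr2:130424339-130444269 on the plus strand, chr2:119288740-119298453 on the plus strand and chr2:120316461-120353137 on the minus strand). Vps11 lies at chr9:44347749-44361670 on the minus strand and Vps33a at chr5:123528659-123573038 on the minus strand. Vps41 lies at chr13:18717286-18866811 on the plus strand, Vps8 at chr16:21423118-21644680 on the plus strand and Tgfbrap1 at chr1:43047200-43098637 on the minus strand. A stretch of 363 bases is shared by Vps16 and Pced1a on opposite strands, and Pced1a had a mean of 1183 counts a library against 1596 for Vps16. The genes that overlap Tgfbrap1 and Vps33a had means of at most 2.71 counts a library.

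TFEB and TFE3 bind the E-box CACGTG, and the longer GTCACGTG is the core of the CLEAR element described for lysosomal genes. The promoter windows of RefSeq (GRCm38.p6), 250 bases before to 50 bases after each start, held 6 of the 8 members, Vps8, Vps16, Vps18, Vps33a, Vps41 and Tgfbrap1. They were searched on both strands for GTCACGTG, TCACGTGA, CACGTG and TCATGTGA, which overlap each other. CACGTG was found in at least 1 window of 3 of the 6 members, and of 8.09% of all 27025 genes in the table. Over single windows, it was found in 7.15% of all 32851. The windows below show the matched bases in capitals and the rest in lower case, 5′ to 3′ on the strand of the gene. Vps8 and Vps18, with no match, are shown by the 60 bases before their start.
Vps16: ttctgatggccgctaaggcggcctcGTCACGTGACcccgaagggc
Vps33a: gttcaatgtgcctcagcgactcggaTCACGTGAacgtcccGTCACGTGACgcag
Tgfbrap1: ggcggcggccCACGTGACgggaagcggc
Vps41: tccgggtatgTCACATGActctcaggct
Vps8: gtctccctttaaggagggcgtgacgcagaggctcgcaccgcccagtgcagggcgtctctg
Vps18: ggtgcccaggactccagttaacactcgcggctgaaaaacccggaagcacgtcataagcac

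The Vps16 window (chr2:130424275-130424319, plus strand) held GTCACGTG on both strands, its matched bases running from position -20 to position -11 before the RefSeq start. The Vps33a window (chr5:123573016-123573069, minus strand) held a TCACGTGA and, further downstream, GTCACGTG on both strands, between positions -29 and -5. The annotated start of Vps33a-201, which took a mean of 81.5% of the TPM of the gene, lies at position -23. The GTCACGTG matches of Vps33a therefore fall within that transcript. The Tgfbrap1 window (chr1:43092470-43092497, minus strand) lay at the downstream of the 2 RefSeq starts of the gene. It held GTCACGTG on the opposite strand, across that start, from position -1 to position 7. The window at the upstream start held none of the 4 motifs. The Vps41 window (chr13:18717283-18717310, plus strand) held TCATGTGA on the opposite strand from position 2 to position 9, and this motif was found in 0.986% of all windows. Those of Vps8 (chr16:21423058-21423117) and Vps18 (chr2:119288682-119288741), both on the plus strand, are shown without a match, as none of the 4 motifs was found within their 300 bases. GTCACGTG was found in 2.25% of all windows and TCACGTGA in 0.974%. A match is a string of letters and not evidence of binding.

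Levels of different genes were compared in TPM, which is scaled by transcript length. In WT under DMSO, Vps16 had the highest level, 61.7 ± 2.03 TPM, followed by Vps41 (33.1 ± 1.85), Vps33a (31.8 ± 0.729), Vps11 (27.0 ± 1.68), Vps39 (22.1 ± 1.99), Vps18 (19.9 ± 0.691), Tgfbrap1 (10.2 ± 0.689) and Vps8 (8.30 ± 0.818; SD, n = 4). The ranges of Vps41 and Vps33a overlapped, as did those of Vps39 and Vps18, and the other neighbours in this order did not overlap. The lead of Vps16 rested on short transcripts annotated as retained introns: Vps16-202, of 655 bases, took a mean of 44.0% of the TPM of the gene. With only the transcripts annotated as protein coding, Vps33a (26.9 ± 0.487 TPM) and Vps41 (25.9 ± 1.90 TPM) came first with overlapping ranges, Vps16 stood at 18.9 ± 1.24 TPM, and Vps8 was still the lowest at 7.27 ± 0.220 TPM. In DKO under DMSO the order was similar except for Tgfbrap1, which stood at 22 ± 1.49 TPM and overlapped Vps39.

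In WT, torin1 raised 7 of the 8 tethering genes and lowered none, a call requiring both an adjusted p under 0.05 and a change of 1.2-fold or more. Over all 15401 genes tested, 26.6% were called higher and 20.5% lower, and the median log2 fold change was 0.41 over the members against 0.05 over all genes. Vps8 and Vps11 had the largest increases and Tgfbrap1 was the member not called. The 4 WT libraries under torin1 lay outside the range of the 4 under DMSO for 7 of the members, and for 54.1% of all genes.

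Among the core genes, Vps11 had 50.8, 54.7, 52.6 and 54.2 CPM in the WT libraries under DMSO and 77.2, 80.4, 82.3 and 83.9 CPM under torin1. Every library under torin1 was above every library under DMSO, with a log2 fold change of 0.61 (SE 0.04, adjusted p = 2.62e-12 from the edgeR quasi-likelihood test). Vps33a had 75.4, 76.2, 73.3 and 75.6 CPM under DMSO and 98.1, 107, 106 and 107 CPM under torin1, again without overlap, with a log2 fold change of 0.48 (SE 0.04, adjusted p = 2.02e-10). Vps16, whose product binds VPS33A, rose from 47.1 ± 1.13 to 59.8 ± 2.22 CPM (log2 fold change 0.34), and Vps18, a RING-domain subunit, rose from 50.9 ± 1.93 to 62.5 ± 2.98 CPM (log2 fold change 0.30). Of the HOPS subunits, Vps41 had 51.3 to 58.7 CPM under DMSO and 75.4 to 79.8 CPM under torin1 (log2 fold change 0.47, SE 0.04), and Vps39 had 53.3 to 55.3 CPM under DMSO and 63.8 to 72.6 CPM under torin1 (log2 fold change 0.36, SE 0.05).

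The CORVET subunits differed from each other. Vps8 had 22.9, 25.2, 23.7 and 23.1 CPM under DMSO and 39.7, 37.7, 35.9 and 40 CPM under torin1, a log2 fold change of 0.69 (SE 0.06, adjusted p = 1.76e-09), the largest of the 8. Tgfbrap1 had 33.6, 30.3, 30.6 and 30.8 CPM under DMSO and 31.4, 35.0, 35.1 and 35.0 CPM under torin1. One library under torin1 lay inside the range of the DMSO libraries, and the log2 fold change of 0.12 (95% interval 0.02 to 0.23, adjusted p = 0.0429) was below the fold change required for a call.

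**Figure D1:**
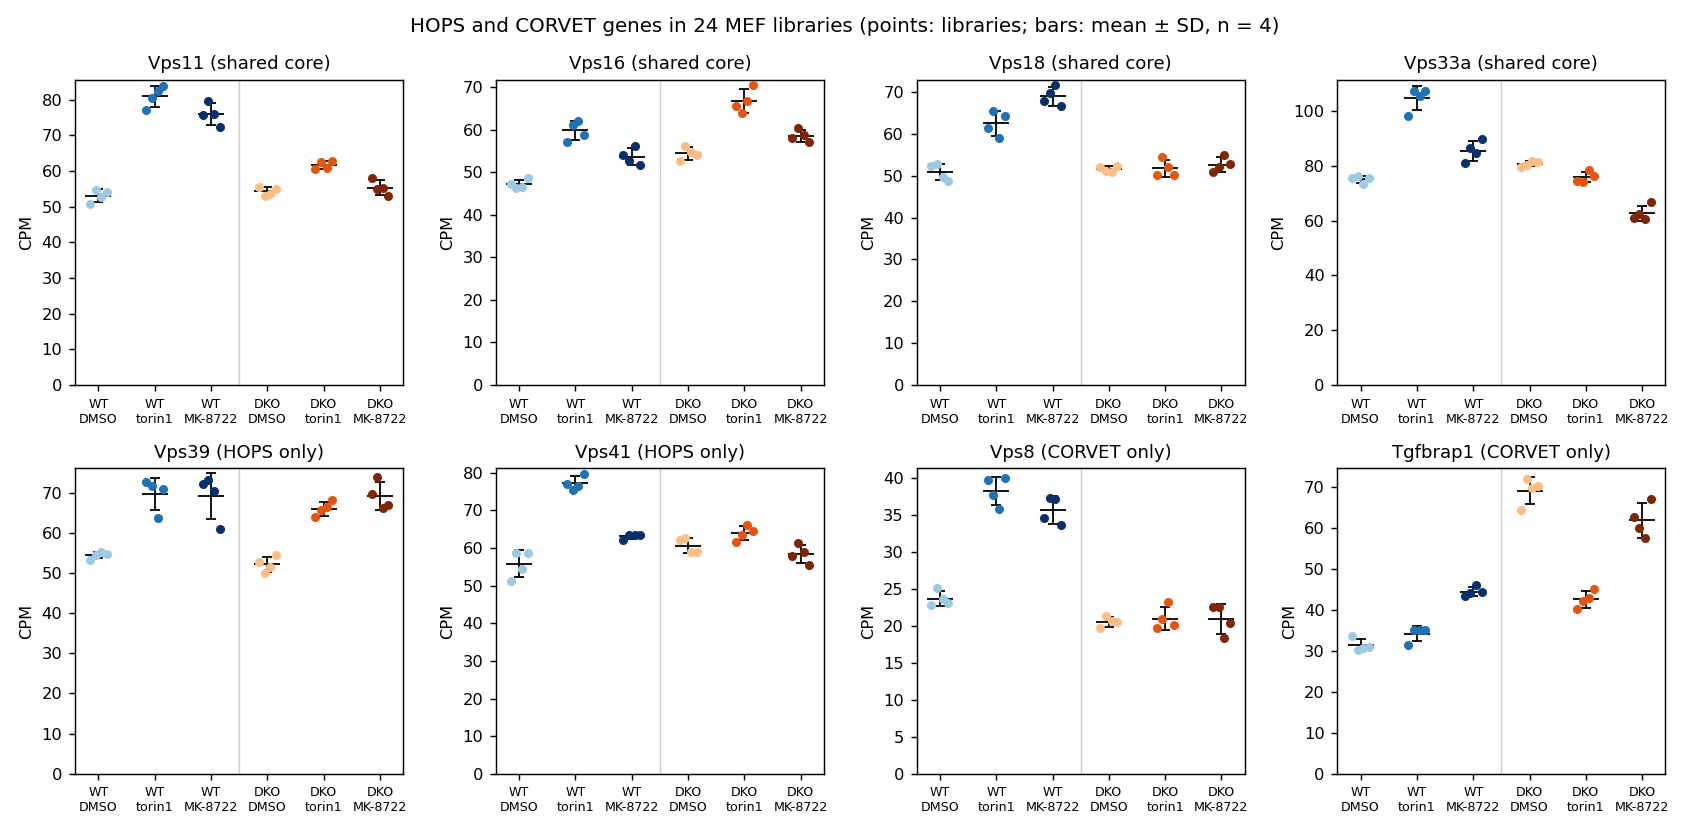
Normalised counts (CPM, vertical axes, starting at 0) of the 8 genes in the 6 groups of genotype and treatment; points are libraries and bars are the mean ± SD (n = 4). Vps8 in WT moved from 23.7 CPM under DMSO to 38.3 CPM under torin1 and 35.8 CPM under MK-8722 and stayed between 20.6 and 21 CPM in the 3 DKO groups, whereas Tgfbrap1 was highest in DKO under DMSO at 69.0 CPM.

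MK-8722 raised 5 of the 8 members in WT and lowered none, against 10.3% of all genes called higher and 5.87% called lower, with a median log2 fold change of 0.39 over the members and -0.01 over all genes. The 5 were Vps8, Vps11, Tgfbrap1, Vps18 and Vps39. The WT libraries under MK-8722 were above the range of those under DMSO for all 8 members, and the 2 groups did not overlap for 29.8% of all genes. Vps11 had 75.8, 79.7, 75.9 and 72.2 CPM under MK-8722 (log2 fold change against DMSO 0.52, SE 0.04), Vps8 had 34.6, 37.4, 37.3 and 33.7 CPM (0.59, SE 0.06) and Tgfbrap1 had 43.4, 44.0, 46.0 and 44.2 CPM (0.50, SE 0.05, adjusted p = 9.50e-08). Each of these ranges was clear of the DMSO libraries. Vps18 rose to 69.0 ± 2.27 CPM (log2 fold change 0.44, SE 0.04) and Vps39 to 69.1 ± 5.65 CPM (0.34, SE 0.05), the latter with its lowest library at 60.8 CPM. Vps16, Vps33a and Vps41 had log2 fold changes of 0.19, 0.19 and 0.18 with adjusted p of 0.000458, 0.00051 and 0.00165, below the fold change of 1.2.

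In the tfeb tfe3 DKO cells, torin1 raised 2 members, Vps16 and Vps39, and lowered 1, Tgfbrap1, against 23% of all genes called higher and 20.2% called lower. The median log2 fold change was 0.05 over the members and 0.02 over all genes. Vps39 had 52.7, 49.9, 51.5 and 54.5 CPM in DKO under DMSO and 63.8, 65.7, 66.3 and 68.0 CPM under torin1, a log2 fold change of 0.34 (SE 0.05, adjusted p = 5.58e-06). Vps16 had 52.6, 56.1, 54.8 and 54.1 CPM under DMSO and 65.5, 63.9, 66.8 and 70.5 CPM under torin1, a log2 fold change of 0.29 (SE 0.04, adjusted p = 3.73e-07), which was 0.24 and below the fold required with an offset for transcript length. For both genes the groups did not overlap. Vps11 had a log2 fold change of 0.18 (95% interval 0.11 to 0.26, adjusted p = 0.000148), below the fold required. Vps33a had 74.6, 74.2, 78.4 and 76.3 CPM under torin1, all below its DMSO libraries of 79.6 to 81.7 CPM, and its log2 fold change of -0.09 (95% interval -0.17 to -0.01, adjusted p = 0.044) was below the fold required. Vps18, Vps8 and Vps41 had values of 0.00 (-0.08 to 0.08), 0.03 (-0.10 to 0.16) and 0.08 (-0.01 to 0.16), and their libraries under torin1 overlapped those under DMSO. The groups did not overlap for 5 of the 8 members and for 52.8% of all genes.

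MK-8722 in the DKO cells raised 1 member, Vps39, and lowered 1, Vps33a, against 5.47% of all genes called higher and 3.21% called lower, with a median log2 fold change of 0.03 over the members and 0.00 over all genes. Vps39 had 69.7, 73.9, 66.2 and 66.8 CPM, all above the DMSO libraries, with a log2 fold change of 0.41 (SE 0.05, adjusted p = 1.22e-05). Vps33a had 79.6, 80.3, 81.7 and 81.4 CPM under DMSO and 60.9, 62.3, 60.6 and 66.6 CPM under MK-8722, with a log2 fold change of -0.37 (SE 0.04, adjusted p = 1.22e-06). The 4 libraries under MK-8722 were the lowest Vps33a values of the series. Vps8, Vps11, Vps18 and Vps41 had log2 fold changes of 0.03, 0.03, 0.03 and -0.05 with adjusted p between 0.409 and 0.804. Vps16 stood at 0.11 (adjusted p = 0.0447) and Tgfbrap1 at -0.16 (adjusted p = 0.026), both below the fold required. The groups did not overlap for 3 of the 8 members and for 21.1% of all genes.

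**Figure D2:**
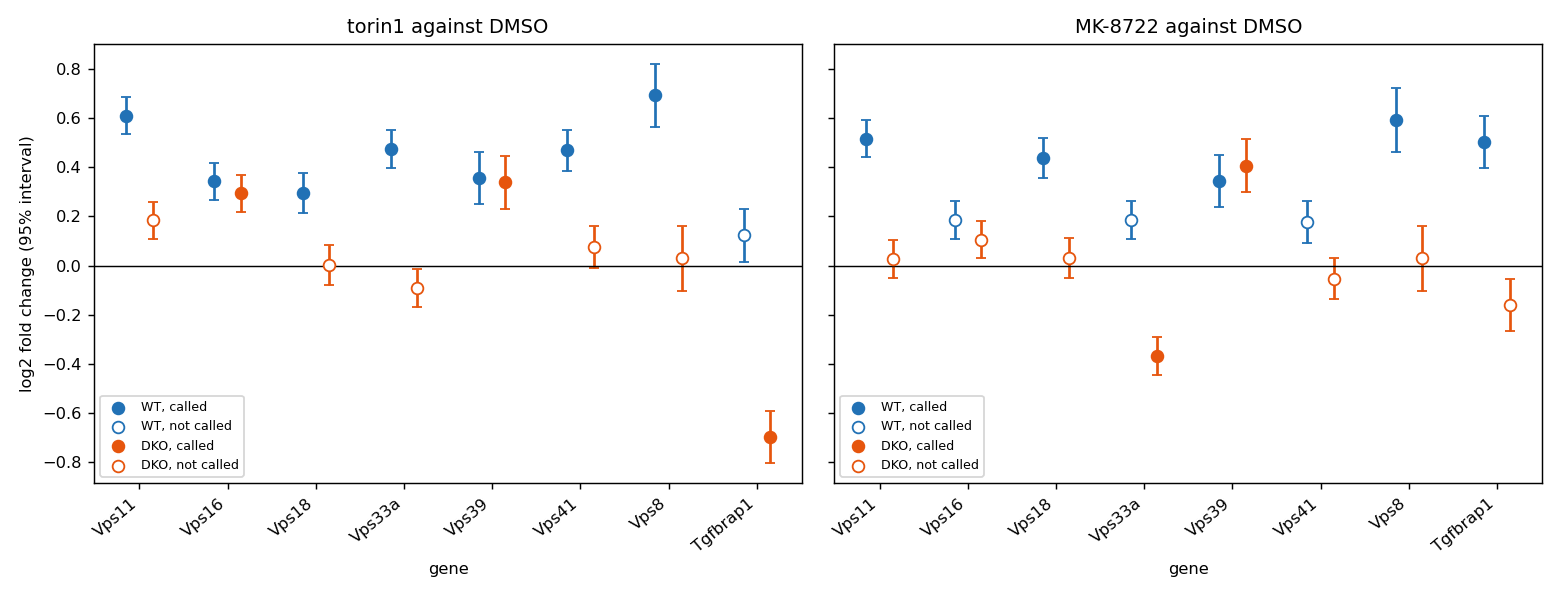
Log2 fold change against DMSO (vertical axis) of each gene under torin1 (left) and MK-8722 (right) in WT (blue) and tfeb tfe3 DKO (orange); bars are 95% intervals, and filled points passed both the adjusted p and the fold change. Vps39 is called in both genotypes under both drugs, with log2 fold changes between 0.34 and 0.41.

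The difference between the genotypes was tested directly as the response in DKO minus the response in WT, an interaction in the same fit. A negative value says that the log2 fold change under the drug was lower in DKO, either a smaller rise or a fall. The torin1 response was lower in DKO for 6 of the 8 members and higher for none, against 6.33% of all genes called lower and 4.68% called higher, and the median difference was -0.41 over the members and -0.01 over all genes. The MK-8722 response was lower for 5 and higher for none, against 4.08% and 1.42% of all genes, with medians of -0.45 and 0.01. In Tgfbrap1 under torin1 and Vps33a under MK-8722 the change in WT was a rise too small for a call and the change in DKO was a called fall. Both responses in a genotype share its DMSO libraries, so the results for the 2 drugs are not independent of each other.

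Among the core genes, Vps33a had differences of -0.57 for torin1 (SE 0.05, adjusted p = 8.37e-08) and -0.55 for MK-8722 (SE 0.05, adjusted p = 1.19e-07). Vps11 had differences of -0.42 (SE 0.05, adjusted p = 3.79e-06) and -0.49 (SE 0.05, adjusted p = 5.74e-07), and Vps18 had -0.29 (SE 0.06, adjusted p = 0.000734) and -0.41 (SE 0.06, adjusted p = 2.21e-05). The difference of Vps18 for torin1 was near the limit of the fold change and was below it without 1 of 2 WT libraries, at -0.26 without torin1 replicate 1 and -0.26 without DMSO replicate 4. Vps16 was the core gene with no call for either drug: the differences were -0.05 (95% interval -0.16 to 0.06) and -0.08 (-0.19 to 0.03). The palindrome shown above in capitals stands in the promoter windows of both Vps16 and Vps33a. None of the motifs was found in that of Vps18, and Vps11 had no window. The part of these motifs in the drug responses was not tested.

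The HOPS subunits also parted. The torin1 response of Vps41 was lower in DKO, by a difference of -0.39 (SE 0.06, adjusted p = 4.66e-05), and its difference for MK-8722 was -0.23 (95% interval -0.35 to -0.11, adjusted p = 0.014), below the fold required, and was called at -0.28 with an offset for transcript length. Vps39 had differences of -0.02 (-0.17 to 0.13) and 0.06 (-0.09 to 0.21). It therefore rose under both drugs in both genotypes, and a difference in its torin1 response beyond 0.17 on the log2 scale in either direction lies outside the interval. Both CORVET subunits had lower responses to both drugs in DKO. The differences of Vps8 were -0.66 (SE 0.09, adjusted p = 1.47e-05) and -0.56 (SE 0.09, adjusted p = 0.000157), and those of Tgfbrap1 were -0.82 (SE 0.07, adjusted p = 3.59e-08) and -0.66 (SE 0.07, adjusted p = 8.74e-07). The log2 fold changes of Vps8 were 0.69 and 0.59 in WT and 0.03 for both drugs in DKO, whereas those of Tgfbrap1 were 0.12 and 0.50 in WT and -0.70 and -0.16 in DKO, of which 0.50 and -0.70 were called.

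**Figure D3:**
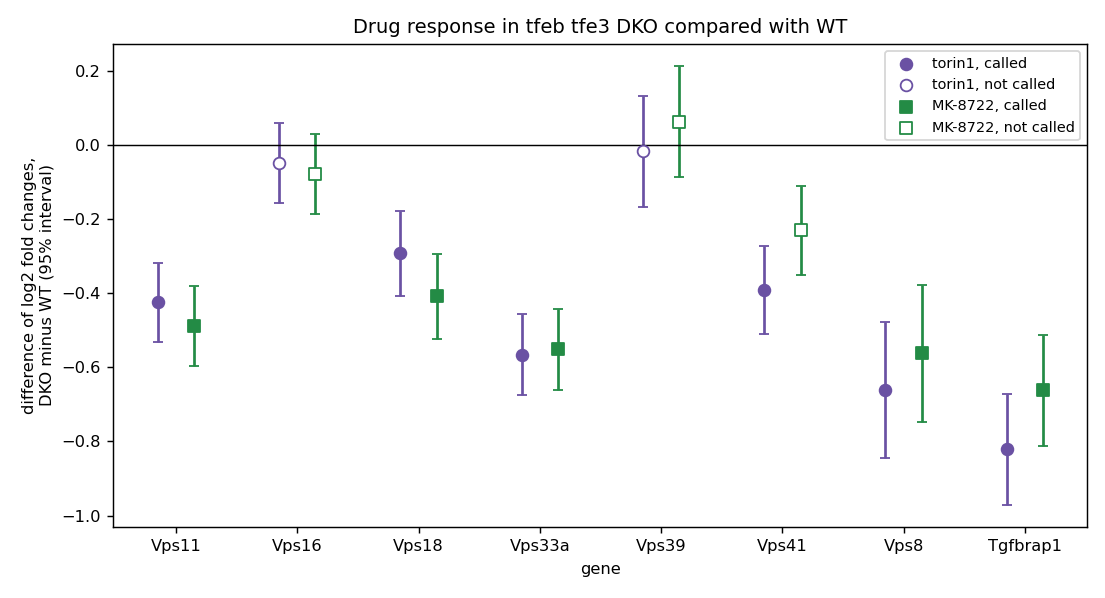
Difference between the drug responses (log2 fold change in DKO less that in WT, vertical axis) of each gene for torin1 (circles) and MK-8722 (squares); bars are 95% intervals and filled points were called. Tgfbrap1 lies at -0.82 and -0.66, whereas the intervals of Vps16 and Vps39 include 0 for both drugs.

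The differences of Vps8 and Tgfbrap1 came from unlike levels. Vps8 had 19.8, 21.3, 20.7 and 20.5 CPM in DKO under DMSO, 19.7, 20.9, 23.2 and 20.1 CPM under torin1 and 22.6, 22.5, 18.4 and 20.4 CPM under MK-8722, so the 3 groups overlapped. Under DMSO and under each drug, all 4 DKO libraries of Vps8 lay below all 4 WT libraries. The genotypes did not overlap for 56.8% of all genes under DMSO, for 60.3% under torin1 and for 54.7% under MK-8722. Tgfbrap1 had 64.3, 71.9, 69.8 and 70.1 CPM in DKO under DMSO, 40.2, 42, 42.8 and 45.1 CPM under torin1 and 62.7, 59.9, 57.4 and 67.1 CPM under MK-8722. Its level in DKO under DMSO was 2.20-fold that in WT (log2 fold change 1.14, SE 0.05, adjusted p = 1.18e-14), and torin1 lowered it in DKO (log2 fold change -0.70, SE 0.05, adjusted p = 7.60e-11). Under torin1 the level in DKO was still above that in WT, by 0.32 on the log2 scale (SE 0.05, adjusted p = 9.74e-06; 0.19 and no longer called with scaling by library size alone), and under MK-8722 by 0.48 (SE 0.05, adjusted p = 2.46e-08).

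Under DMSO, Tgfbrap1 was the 1 member called between the genotypes, against 23.5% of all genes called higher and 24.6% called lower in DKO. Vps16, Vps33a and Vps41 were higher in DKO by 0.21, 0.10 and 0.12 on the log2 scale and Vps8 was lower by a log2 fold change of -0.21, with adjusted p between 3.75e-05 and 0.019 and fold changes below 1.2. Vps11 and Vps18 stood at 0.03 (95% interval -0.04 to 0.11) and 0.02 (-0.06 to 0.10). With scaling by library size alone Vps8 was called, at -0.28. Under torin1, 5 members were lower in DKO (Vps8, Vps33a, Vps11, Vps18 and Vps41) and 1 was higher (Tgfbrap1), against 27.8% and 24% of all genes. Their log2 fold changes were -0.87 for Vps8 (SE 0.06), -0.46 for Vps33a (SE 0.04), -0.39 for Vps11 (SE 0.04) and -0.27 for both Vps18 and Vps41 (SE 0.04). The last 2 lay at the limit of the fold change: without DKO torin1 replicate 1 or WT torin1 replicate 4 neither was called, without DKO torin1 replicate 4 or WT torin1 replicate 2 Vps18 was not, and without DKO torin1 replicate 2 or WT torin1 replicate 1 Vps41 was not, at log2 fold changes between -0.26 and -0.24. Both also lost the call with no filter on low counts, at -0.25 and -0.25. Vps16 was higher by 0.16 (adjusted p = 0.00063), below the fold required. Under MK-8722, 4 were lower (Vps8, Vps11, Vps33a and Vps18, at -0.77, -0.46, -0.45 and -0.39) and Tgfbrap1 was higher, against 25.4% of all genes called lower and 23.3% called higher. Vps16 stood at 0.13 (adjusted p = 0.00457) and Vps41 at -0.11 (adjusted p = 0.0214), both below the fold required. Vps39 was not called between the genotypes under any treatment, at -0.06 (95% interval -0.17 to 0.04) under DMSO, -0.08 (-0.19 to 0.03) under torin1 and 0.00 (-0.11 to 0.11) under MK-8722.

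Because VPS39 and VPS41 take the places in HOPS that TGFBRAP1 and VPS8 take in CORVET, the summed TPM of the HOPS pair was set against that of the CORVET pair in each library, as a description without a test. In WT the ratio was 2.99 ± 0.10 under DMSO, 2.95 ± 0.114 under torin1 and 2.35 ± 0.162 under MK-8722 (SD, n = 4). In DKO it was 1.93 ± 0.132, 3.06 ± 0.0828 and 2.43 ± 0.136. The WT libraries under MK-8722 (2.19 to 2.56) lay below those under DMSO (2.88 to 3.12), and the DKO libraries under DMSO (1.78 to 2.10) lay below those of the other 5 groups. In WT, both sums were higher under torin1, the HOPS pair at 82.2 against 55.1 TPM and the CORVET pair at 27.9 against 18.5 TPM. In DKO the CORVET pair had 29.7 TPM under DMSO and 21.6 TPM under torin1. Taken subunit by subunit, the ratios moved unlike each other. Vps39 to Tgfbrap1 was 2.17 ± 0.133, 2.94 ± 0.486 and 2.05 ± 0.188 in WT under DMSO, torin1 and MK-8722, and 0.986 ± 0.0754, 2.01 ± 0.229 and 1.56 ± 0.125 in DKO. Vps41 to Vps8 was 4.0 ± 0.323, 2.98 ± 0.187 and 2.69 ± 0.531 in WT, and 4.65 ± 0.365, 5.05 ± 0.949 and 4.79 ± 0.511 in DKO. Under torin1 in WT the first ratio was thus higher and the second lower than under DMSO, and the low summed ratio of DKO under DMSO was seen in Vps39 to Tgfbrap1 but not in Vps41 to Vps8. With the protein-coding transcripts alone the summed ratios were lower, 2.38, 2.38 and 1.91 in WT and 1.48, 2.40 and 1.77 in DKO, and DKO under DMSO was again the lowest group. These are ratios of mRNA and not of assembled complexes.

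**Figure D4:**
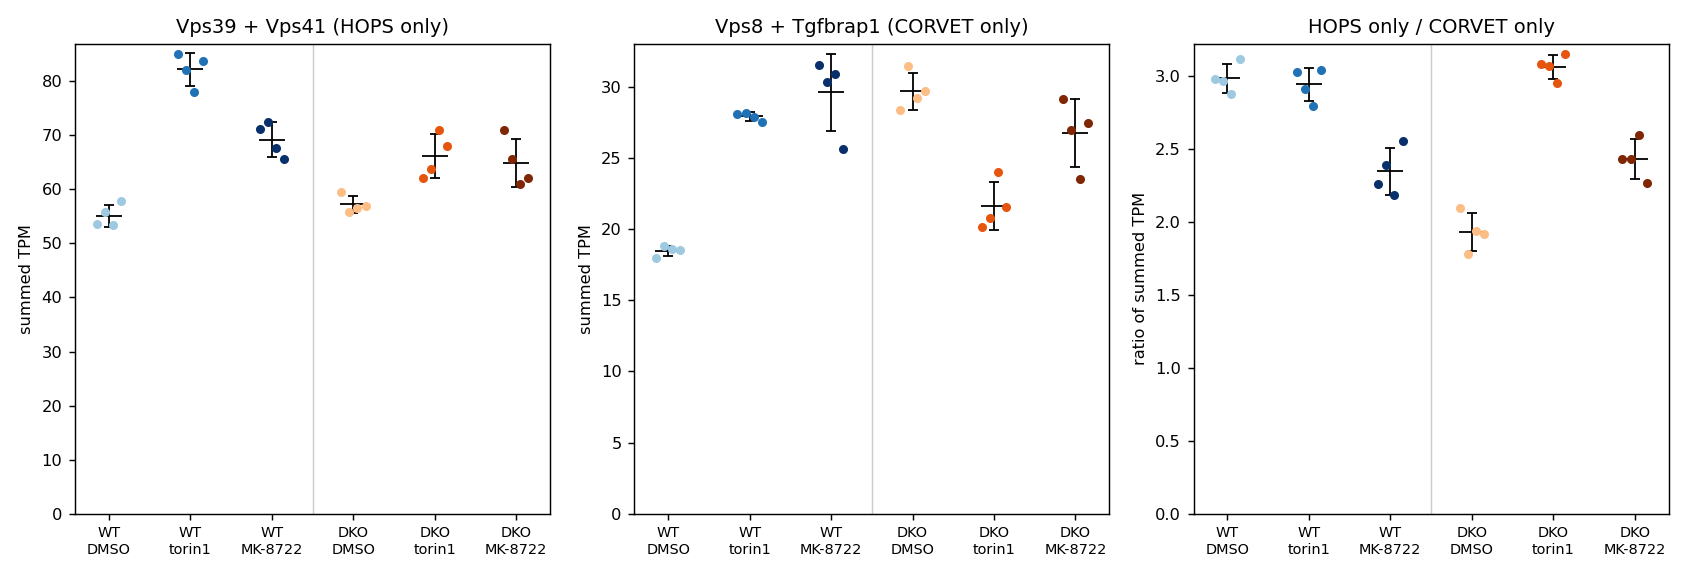
Summed TPM of the HOPS subunits Vps39 and Vps41 (left), of the CORVET subunits Vps8 and Tgfbrap1 (middle) and their ratio (right) in the 6 groups; points are libraries, bars are the mean ± SD (n = 4) and the axes start at 0. The ratio is lowest in tfeb tfe3 DKO under DMSO, at 1.93, and is 3.06 in DKO under torin1.

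Tgfbrap1 has transcripts from 2 starts, and reads were assigned to both. Tgfbrap1-202, from the downstream start, took a mean of 58.4% of the TPM of the gene and Tgfbrap1-201, from the upstream start, took 26.1%. Tgfbrap1-202 had 5.77 ± 0.104 TPM in WT under DMSO, 6.50 ± 0.525 under torin1 and 8.79 ± 0.761 under MK-8722, and 12.6 ± 0.760, 8.23 ± 0.611 and 11.5 ± 1.26 TPM in DKO under the same treatments. Tgfbrap1-201 had 2.62 ± 0.362, 3.28 ± 0.244 and 3.55 ± 0.445 TPM in WT and 5.60 ± 0.199, 3.49 ± 0.132 and 5.18 ± 0.432 TPM in DKO. Both transcripts thus had their highest group mean in DKO under DMSO, where the libraries of Tgfbrap1-202 (11.5 to 13.1 TPM) overlapped those of DKO under MK-8722 (10.2 to 13.1 TPM). The annotated start of Tgfbrap1-202 lies at position -243 from the downstream RefSeq start, so the E-box shown above falls within that transcript.

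**Figure D5:**
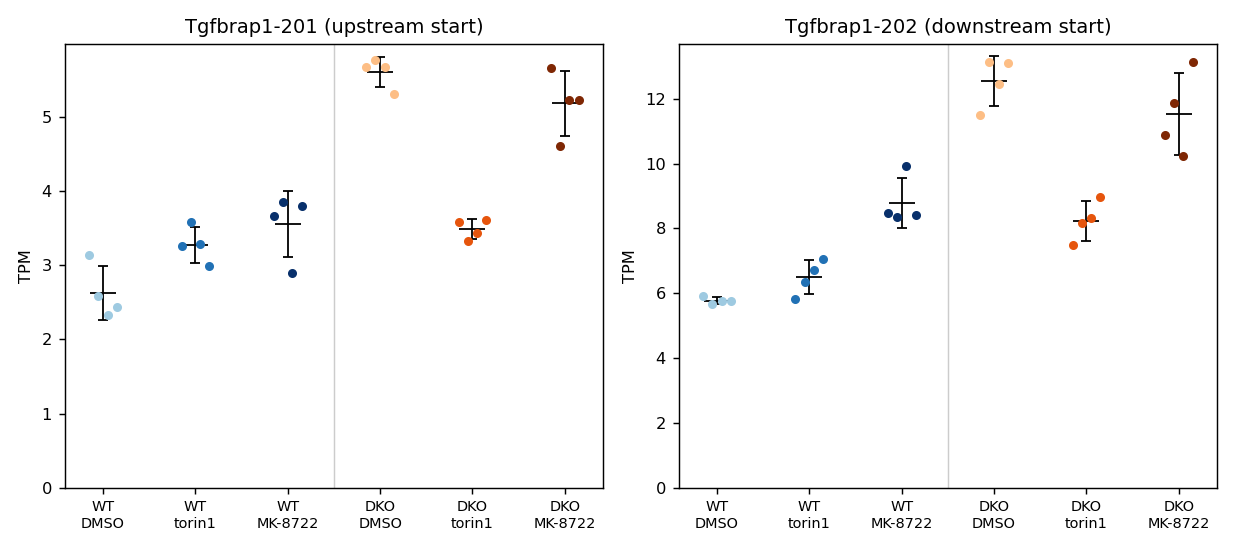
TPM (vertical axes, starting at 0) of Tgfbrap1-201, from the upstream start, and Tgfbrap1-202, from the downstream start, in the 6 groups; points are libraries and bars are the mean ± SD (n = 4). Both have their highest group mean in tfeb tfe3 DKO under DMSO, at 5.60 and 12.6 TPM, with libraries that overlap those of DKO under MK-8722.

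The leading transcript of each of the 8 genes was compared between groups as its share of the TPM of the gene. In 56 two-sided exact permutation tests of 4 against 4 libraries the smallest p the design allows is 0.0286, and 33 of the tests would have to reach it before any could have an adjusted p under 0.05. None could therefore be called unless most changed, and the smallest adjusted p was 0.4. The smallest p was reached in 4 tests. Those 4 were the share of Vps16-202 in DKO under MK-8722 (41.0% against 45.5% under DMSO), of Vps33a-201 in WT under torin1 (80.2% against 84.6%), and of Vps8-204 in WT under MK-8722 (29.8% against 35.1% under DMSO and against 37.8% in DKO under MK-8722).

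The drugs were also compared with each other. In WT, Vps33a and Vps41 were higher under torin1 than under MK-8722, each by 0.29 on the log2 scale (SE 0.04), and Tgfbrap1 was lower, by a log2 fold change of -0.38 (SE 0.05, adjusted p = 1.24e-06), against 24.9% of all genes called higher and 20% called lower. The call of Vps33a was lost without MK-8722 replicate 1, where the log2 fold change was 0.26, and with no filter on low counts both genes had 0.26 and were not called. In DKO, Vps33a was again higher under torin1, by 0.28 (SE 0.04; 0.26 and not called with the length offset), and Tgfbrap1 was lower, at -0.54 (SE 0.05), against 21.1% called higher and 19.3% called lower. The remaining members had log2 fold changes between -0.14 and 0.16 in WT and between -0.07 and 0.19 in DKO. Per the study's supplement, torin1 was used at a nanomolar and MK-8722 at a micromolar concentration, 1 dose each, so the drugs were not compared at matched doses.

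All of 45 partner genes of the same fusion steps, a list drawn up by role with earlier results of these data known, passed the filter on low counts. In WT, 8 (17.8%) were higher and 7 (15.6%) lower under torin1, each share below the 26.6% and 20.5% of all genes, and 9 (20%) were higher and none lower under MK-8722, against 10.3% and 5.87% of all genes. The largest changes under torin1 were those of Rufy4, a low-count adaptor gene (log2 fold change 2.24, SE 0.45), Tbc1d15, a GTPase-activating protein of RAB7 (0.76, SE 0.04) and Ykt6, an R-SNARE (-0.72, SE 0.04), and under MK-8722 those of Arl8a and Arl8b, lysosomal GTPases that recruit HOPS through VPS41 (1.04 and 0.54, SE 0.04 and 0.03), and Rmc1, a subunit of the RAB7 exchange factor (0.60, SE 0.05). In DKO, 6 (13.3%) were higher and 15 (33.3%) lower under torin1, against 23% and 20.2% of all genes, led by Ykt6 (-0.75), Mon1a (-0.68) and Tbc1d15 (0.68). Of the 15, 9 were on the SNARE list of 16 genes. That list also holds Napa and Nsf, which act on SNARE complexes and are not SNAREs. Both were among the 9 (-0.27 and -0.49). MK-8722 raised 2 in DKO, Arl8a (0.31) and Stx16 (0.27), which is 4.44% against 5.47% of all genes, and lowered none.

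Under DMSO, 19 partners (42.2%) were higher and 3 (6.67%) lower in DKO than in WT, against 23.5% and 24.6% of all genes, with the largest differences for Rilp, an effector of RAB7 (2.63, SE 0.18), Arl8a (0.80, SE 0.04) and Stx6 (0.77, SE 0.04). Under torin1 the counts were 15 and 14 (33.3% and 31.1%, against 24% and 27.8% of all genes), led by Rilp (2.89), Rufy4 (-1.91) and Stx6 (1.09), and under MK-8722 they were 11 and 7 (24.4% and 15.6%, against 23.3% and 25.4%), led by Rilp (3.02), Rufy4 (-2.64) and Vps50 (-0.80). The torin1 response was lower in DKO for 9 partners (20%, against 6.33% of all genes), led by Arl8b (-0.70, SE 0.05), Rufy1 (-0.48, SE 0.08) and Arl8a (-0.46, SE 0.05), and higher for 2 (4.44%, against 4.68%). Of the 9, Rab7, Stx7, Snap29, Vps53 and Rufy1, named after their values were seen, were called lower under torin1 in DKO and not in WT, with log2 fold changes in DKO of -0.61, -0.48, -0.53, -0.45 and -0.29. The 2 were Epg5, which rose in DKO (0.60) and stood at 0.19 in WT, and Stx6, which fell in WT (-0.45) and stood at -0.12 in DKO. The MK-8722 response was lower for 9 (20%, against 4.08%), led by Arl8a (-0.73, SE 0.05), Arl8b (-0.66, SE 0.05) and Rufy1 (-0.53, SE 0.08), and higher for none. The median differences over the 45 genes were -0.11 and -0.08. Between the drugs, 3 partners (6.67%) were higher and 15 (33.3%) lower under torin1 than under MK-8722 in WT, against 24.9% and 20% of all genes, led by Rufy4 (1.14), Mon1a (-0.74) and Ykt6 (-0.69), and 5 (11.1%) were higher and 13 (28.9%) lower in DKO, against 21.1% and 19.3%, led by Rufy4 (1.87), Epg5 (0.82) and Ykt6 (-0.64). The VPS33B complex, a relative of HOPS built on Vps33b and Vipas39, had no gene called in either WT comparison with DMSO. Of its 2 genes, 1 was called higher under torin1 in DKO. In DKO against WT, 1 was called higher under DMSO and 1 under torin1. Between the drugs, 1 was higher and 1 lower under torin1 in WT, and 1 was higher in DKO.

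Across the 24 libraries, the log2 CPM of Vps8 and Vps11 had a Pearson r of 0.90 and that of Vps8 and Tgfbrap1 had an r of -0.50, the highest and the lowest among the 28 pairs of members. The libraries fall into 6 groups and share cells and treatments, so these values describe the group levels and carry no test. Of the 10658 genes outside the members with a mean log2 CPM of at least 2, the gene nearest to each member was Washc2 for Vps11 (r = 0.98), Kdm4c for Vps8 (0.98), Soga1 for Vps16 (0.96), Atp6v1b2 for Vps18 (0.96), Gnptab for Tgfbrap1 (0.96), Msto1 for Vps33a (0.92), Washc1 for Vps41 (0.92) and Fndc3a for Vps39 (0.90). Washc1 and Washc2 encode subunits of the WASH complex on endosomes, and Atp6v1b2 encodes a subunit of the lysosomal proton pump.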

How the data were processed

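Polyadenylated RNA of 24 MEF libraries was sequenced as stranded read pairs. Per the study's methods, the authors aligned reads with STAR to GRCm38, took molecular identifiers into account and quantified transcripts with Salmon; the submitters' processing notes name the same tools and build. The deposited gene table holds estimated counts that were summed over transcripts by the authors and are not normalized. The deposited transcript files hold estimated counts and TPM values from Salmon, of which the TPM values were summed per gene here.

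Counts were rounded and filtered with filterByExpr (minimum count 10), leaving 15401 genes. They were scaled by TMM factors (0.9501 to 1.084) and tested with edgeR 4.0.16 (quasi-likelihood in its edgeR 3 form) in R 4.3.3, with 1 mean per group over all 24 libraries and Benjamini-Hochberg adjustment over all genes. Calls required an adjusted p under 0.05 together with a change of 1.2-fold or more. Intervals are 95% intervals of the fitted value. The biological coefficient of variation was 10.7%. Replicates differed beyond sampling noise in all 36 pairs (chi-square per degree of freedom 3.98 to 40.9). In data simulated for torin1 against DMSO in WT with 15401 genes, 86 of 100 genes changed 2-fold and 59 of 100 changed 1.5-fold were called, with 9 unchanged genes called. For the response to torin1 in DKO compared with WT, 76 and 35 of 100 were called, with 3 unchanged genes called. The changed genes were drawn at random from all genes tested, so these shares are not specific to genes at the counts of the members.

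All 8 members are described in every comparison; of each partner comparison the called genes with the largest changes are named, 3 at most, and the nearest gene of each member is the one with the highest r. The members and lists were chosen with earlier results of these data known. Limma 3.58.1 and DESeq2 1.42.0 gave alternatives, and the shares of transcripts were tested with scipy 1.17.1. Levels from protein-coding transcripts and the values of the single Tgfbrap1 transcripts were added after seeing the data. Replicate numbers did not pair the samples; libraries of the same passage deviated together in WT, with r of 0.036 to 0.657 between each drug and DMSO. The RNA integrity number was 7.9 for replicate 3 of DKO under MK-8722 and 9.7 to 9.9 for the other libraries. The labels put all libraries in batch 1.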

Additional observations from a re-analysis of the deposited data

Results flagged for a closer look

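In 3 of the 48 sets of 4 library values (8 genes in 6 groups), 1 library lay apart from the other 3 by more than the 95% limit of the Dixon test, which chance passes in about 1 of 20 sets. These were Vps41 in WT under MK-8722, where replicate 1 had 62.2 CPM and the others 63.4 to 63.5 CPM, Tgfbrap1 in WT under DMSO, where replicate 1 had 33.6 CPM and the others 30.3 to 30.8 CPM, and Tgfbrap1 in WT under torin1, where replicate 1 had 31.4 CPM and the others 35.0 to 35.1 CPM. The last 2 libraries are those that bring the WT groups of Tgfbrap1 into overlap.

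The drug responses that differed between the genotypes by the test of the difference itself numbered 11. For torin1, the difference (DKO minus WT) was -0.82 for Tgfbrap1, -0.66 for Vps8, -0.57 for Vps33a, -0.42 for Vps11, -0.39 for Vps41 and -0.29 for Vps18. For MK-8722 it was -0.66 for Tgfbrap1, -0.56 for Vps8, -0.55 for Vps33a, -0.49 for Vps11 and -0.41 for Vps18. In Tgfbrap1 and Vps33a the difference included a fall in DKO (Tgfbrap1 under torin1, at -0.70, and Vps33a under MK-8722, at -0.37).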

How the results depend on the processing

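With the adjusted p alone and no fold change required, the members called numbered 8 for MK-8722 in WT, 5 for torin1 in DKO, 4 for MK-8722 in DKO, 5 for DKO against WT under DMSO, and 6 and 5 for torin1 against MK-8722 in WT and DKO. With a test against the fold change of 1.2 itself (glmTreat) they numbered 1 for torin1 in DKO, 0 for MK-8722 in DKO, 3 for DKO against WT under torin1, and 1 and 1 between the drugs in WT and DKO. Scaling by library size alone gave 2 members for DKO against WT under DMSO, no filter on low counts gave 1 for torin1 against MK-8722 in WT, and an offset for transcript length gave 1 for torin1 against MK-8722 in DKO. The other counts stayed within 1.5 times, but single members in them lost their call with glmTreat. These were Vps18 for torin1 in WT and Vps39 for MK-8722 in WT. In the responses in DKO compared with WT, they were Vps18 and Vps41 for torin1 and Vps18 for MK-8722. Vps39 also lost its calls in DKO under both drugs with glmTreat. Scaling by library size alone moved all members by about -0.13 on the log2 scale in DKO against WT under torin1, by 0.09 for torin1 in WT and by less elsewhere, and DESeq2 size factors moved them by at most 0.019. Leaving out 1 library gave 7 members in every case for torin1 in WT, 5 for MK-8722 in WT, 5 to 6 and 5 for the torin1 and MK-8722 responses in DKO compared with WT, 4 to 6 for DKO against WT under torin1 and 2 to 3 for torin1 against MK-8722 in WT. Of 1976 values of single members, 33 lost a call, 24 gained one and 0 changed direction with a call, and 40 changed sign without a call in either fit, all at 0.11 or less on the log2 scale.

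Replicate numbers do not pair the samples (r of same-numbered deviations from -0.41 to 0.66), and the replicate block gave the same counts, 7 and 5 members for torin1 and MK-8722 in WT, 3 and 2 in DKO, and 6 and 5 for the responses; so did a block for passage. The 56 tests of leading transcript shares gave 0 calls, but the design could hardly give any after adjustment, and with 3 against 4 libraries the smallest p is 0.0571, so these counts say nothing about stability; with shares of reads, 4 tests had an unadjusted p under 0.05.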
